A study of Mus musculus with 6 samples.

Results

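The CDK inhibitor family comprises 7 genes here, 3 of the Cip/Kip class (Cdkn1a, Cdkn1b and Cdkn1c) and 4 of the Ink4 class (Cdkn2a, Cdkn2b, Cdkn2c and Cdkn2d). They were taken by gene symbol from the 55401 genes of the deposited table, and each symbol matched 1 Ensembl gene. RNA was sequenced in bone marrow-derived macrophages of C57BL/6 mice, which are primary macrophages grown from marrow. The 2 groups were siPiezo1, transfected with an siRNA against the mechanically gated cation channel Piezo1 (3 libraries), and siNC, transfected with a control siRNA (3 libraries). Cells of both groups were stretched for 4 h, so that every value here is from stretched cells; cells without stretch were not analysed here. The title of the series links Piezo1 to macrophage proliferation through PI3K, AKT and Ccnd1, the gene of cyclin D1. The knockdown was partial: Piezo1 stood at 111, 109 and 113 CPM (counts scaled to a common library total) in siPiezo1 replicates 1, 2 and 3, against 179.8, 285 and 189 CPM in siNC replicates 1, 2 and 3. The groups did not overlap, and siPiezo1 averaged 51.0% of siNC. The log2 fold change was -0.97 ± 0.18 (SE), with an adjusted p of 0.744 with edgeR and 0.000982 with DESeq2. Without siNC replicate 2 the log2 fold change of Piezo1 was smaller, at -0.73 ± 0.06 (SE, edgeR adjusted p = 0.00245). The gene Ctu2 overlaps 24.6% of the Piezo1 exon bases on the opposite strand.

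CDK inhibitors are small proteins that bind cyclin-dependent kinases (CDKs) or their cyclin complexes and hold cells in G1 or out of the cycle. Ink4 proteins bind CDK4 and CDK6 and keep D-type cyclins from pairing with them. Cip/Kip proteins bind whole cyclin-CDK complexes, block those of CDK2, and can also help cyclin D-CDK4 complexes to assemble. In macrophages Cdkn1a is known as a target of p53 and of differentiation signals, and p27, the product of Cdkn1b, is controlled largely by protein turnover, which RNA does not show.

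The libraries held 61086684 to 75052745 estimated counts, at about 3.76 to 3.78 counts per sequenced fragment. Macrophage markers were abundant in all of them, all 11 listed genes being above 1 CPM in at least 1 library, with a summed level of 34730 to 37540 CPM in siPiezo1 and 28080 to 35940 CPM in siNC. Most of that sum was Lyz2, which encodes lysozyme, at 25600 to 26820 CPM in siPiezo1 and 20620 to 24960 CPM in siNC. Of the 11 genes, 7 had a log2 fold change below 0 with 6 libraries (median -0.16) and 8 without siNC replicate 2 (median -0.31). Leaving that library out, edgeR called Adgre1, the F4/80 antigen (-0.31 ± 0.05), and Fcgr1, an Fc receptor gene (-0.46 ± 0.07, SE), lower in siPiezo1 (edgeR adjusted p = 0.0376 and 0.0283), and edgeR with 6 libraries called neither. The complement gene C1qb stood at 128, 131.5 and 80.3 CPM in siPiezo1, against 332, 47.2 and 376 CPM in siNC, and C1qa and C1qc also lay between siNC replicate 2 and the other siNC libraries. One library stood apart, siNC replicate 2, with correlations across genes of 0.938 to 0.951 to the other libraries, which correlated among themselves at 0.958 to 0.969. Its 12 neutrophil markers summed to 3446 CPM, against 635 to 668 CPM in siPiezo1 and 662 and 709.7 CPM in siNC replicates 1 and 3, and the proliferation marker gene Mki67 stood at 391 CPM there, against 195 to 289.8 CPM in siPiezo1 and 165 and 174 CPM in the other siNC libraries. The part of these marker differences in the results was not tested, and the members' fold changes are therefore also given without siNC replicate 2. Of the other marker lists, 6 of 7 T and NK cell genes, 4 of 5 B cell, 4 of 5 dendritic cell and 2 of 3 mast cell genes stayed under 1 CPM in every library. The T cell receptor genes Cd3d, Cd3e and Cd3g and the B cell factor Pax5 were listed at 0 counts throughout. The 7 stromal genes summed to 14.4 to 17.1 CPM in siPiezo1 and to 11.4, 25.6 and 9.33 CPM in siNC replicates 1, 2 and 3. In bulk RNA, fewer cells of a type and less RNA per cell cannot be told apart.

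No CDK inhibitor gene passed the threshold of an adjusted p of 0.05 over all genes, in either direction. All 7 members passed the filter on low counts, and 0 of 7 were called by edgeR's quasi-likelihood test, where 1 of 15959 tested genes (0.00627%) was called. DESeq2 on the same 6 libraries called 0.551% of the genes and also 0 of the 7 members. At an unadjusted p under 0.05, edgeR gave 1 member, Cdkn1a, which was lower in siPiezo1, against 2.41% of all genes in that direction and 4.93% in either, and DESeq2 gave Cdkn1a and Cdkn1c, against 6.32% of all genes. The siPiezo1 and siNC libraries did not overlap for 2 members, Cdkn1a below and Cdkn1c above siNC, against 11.9% of all tested genes in either direction. By direction, 6.24% of all tested genes lay above and 5.65% below siNC without overlap. A total of 6 members had a log2 fold change above 0, against 48% of all tested genes, and the median of the 7 was 0.20, beside -0.01 for all tested genes. Without siNC replicate 2, edgeR again called 0 of the 7, where it called 1.09% of all tested genes, and 3 members had an unadjusted p under 0.05 (Cdkn1a lower, Cdkn1c and Cdkn2d higher), against 14.3% of all genes. The median of the members was then 0.24, with 6 above 0, against 50.5% of all genes.

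**Figure D1:**
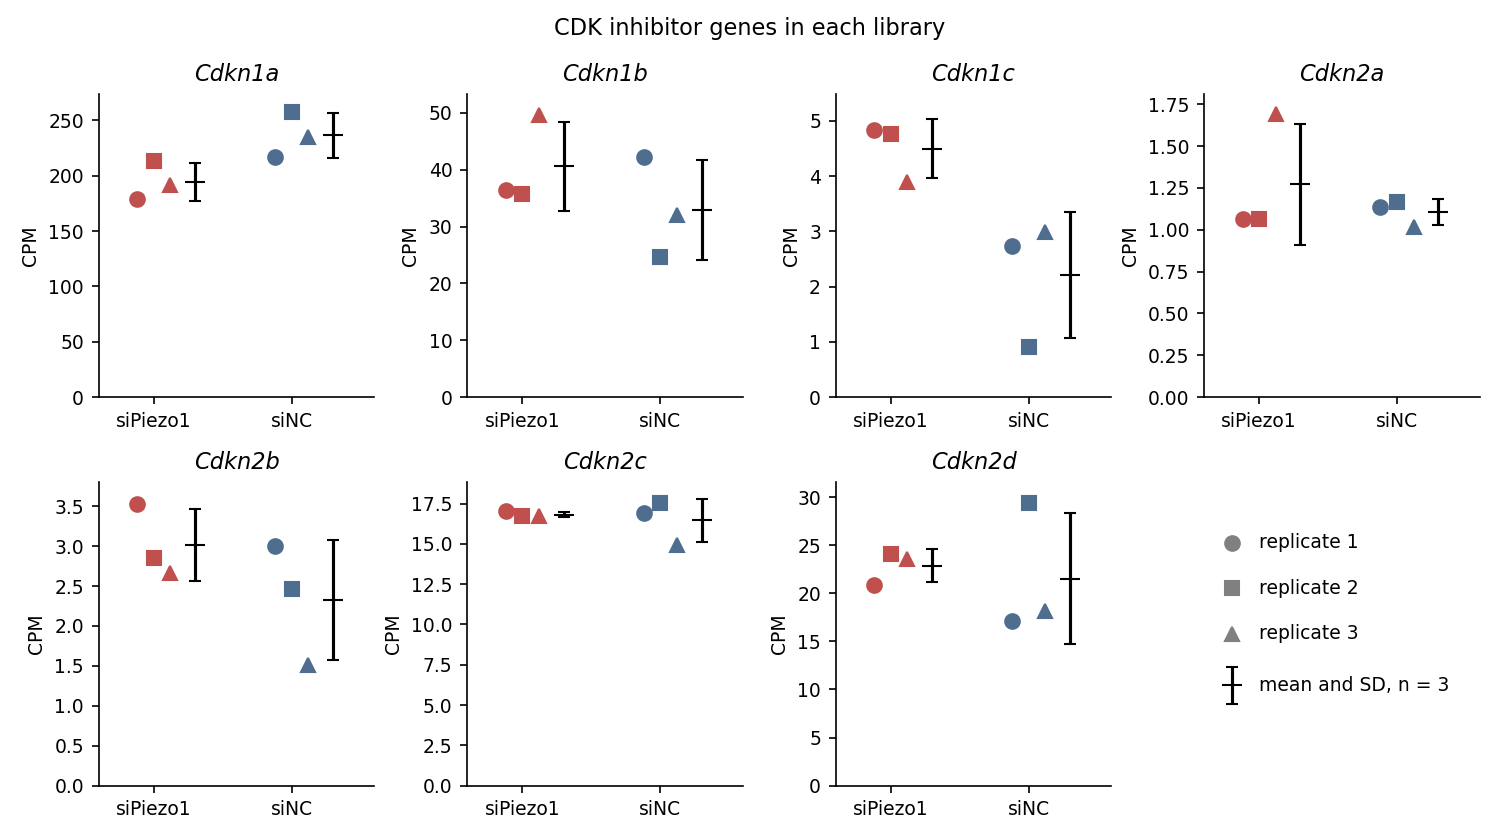
Level of each CDK inhibitor gene in CPM (linear axes from 0), with 1 symbol per replicate number and the mean and SD of 3 libraries beside each group. The siPiezo1 libraries lie below all siNC libraries for Cdkn1a (at most 213 CPM, against at least 217 CPM) and above them for Cdkn1c (at least 3.89 CPM, against at most 2.99 CPM), and the groups overlap for the other members.

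Cdkn1a, which encodes p21, the Cip/Kip inhibitor that also binds PCNA, was the most abundant member, also per length of exon. It stood at 179, 213 and 192 CPM in siPiezo1 replicates 1, 2 and 3, against 217, 257 and 235 CPM in siNC replicates 1, 2 and 3. Every siPiezo1 library was below every siNC library, although the highest siPiezo1 value and the lowest siNC value lay close together. The means were 195 ± 17.1 CPM in siPiezo1 and 236 ± 20.2 CPM in siNC (SD, n = 3 each), so that siPiezo1 stood at 82.3% of siNC. The log2 fold change was -0.28 ± 0.10 (SE), which did not pass the threshold (edgeR adjusted p = 0.978, unadjusted p = 0.0296). By unadjusted p, Cdkn1a ranked 452nd among the 15959 tested genes. An exact two-sided permutation test of its level gave p = 0.1, the smallest value that 3 against 3 libraries allow. Without siNC replicate 2 the log2 fold change was -0.22 ± 0.08 (SE; edgeR adjusted p = 0.259). An unnamed antisense locus, AC167363.2, shares 7.68% of the exon bases of Cdkn1a and held 29 to 74 counts per library, against 12815 to 19434 counts for Cdkn1a.

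RefSeq gives Cdkn1a 2 transcription starts on the plus strand of chromosome 17, and the count table holds 1 value for both, so their use cannot be told apart. Both windows of 250 bases before these starts are shown because Cdkn1a was the member with the highest level and the smallest p. They lie at chr17:29090729-29090978 and chr17:29093519-29093768 of GRCm38.p6, are written 5′ to 3′ on the strand of the gene, and carry matches to the searched motifs in capitals.
Cdkn1a start 1: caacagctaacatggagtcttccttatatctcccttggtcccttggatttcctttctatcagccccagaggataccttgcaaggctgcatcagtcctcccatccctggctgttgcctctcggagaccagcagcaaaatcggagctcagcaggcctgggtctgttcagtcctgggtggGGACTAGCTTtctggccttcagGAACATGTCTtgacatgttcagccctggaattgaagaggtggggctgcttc
Cdkn1a start 2: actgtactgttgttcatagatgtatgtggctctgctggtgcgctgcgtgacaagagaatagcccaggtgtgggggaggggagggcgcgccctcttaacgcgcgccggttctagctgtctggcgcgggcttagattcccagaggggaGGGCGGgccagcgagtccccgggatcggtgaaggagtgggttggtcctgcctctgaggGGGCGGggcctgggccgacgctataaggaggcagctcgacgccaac
The window of the first start holds 2 matches to the p53 decamer, the unit that p53 binds in pairs, ending 64 and 42 bases before the start. Such a match occurs in 7.13% of the 32851 RefSeq windows of this length. The window of the second start holds 2 matches to the GC box GGGCGG and none to the p53 decamer; the GC box occurs in 32.7% of windows. The other motifs, searched on both strands like these, had no match in either window. They were the E2F motifs TTTGGCGC (in 0.417% of windows) and TTTCCCGC (0.895%), the TATA box TATAAA (12.4%), the cyclic AMP element TGACGTCA (1.55%), the E-box CACGTG (6.02%), the FOXO motif GTAAACA (3.17%) and the AP-1 motif TGANTCA (6.75%). A match is a description of the letters and not evidence of binding.

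Cdkn1b, which encodes p27, an inhibitor of cyclin E-CDK2 and cyclin A-CDK2 complexes, overlapped between the groups. It stood at 36.4, 35.8 and 49.6 CPM in siPiezo1, against 42.3, 24.7 and 32.0 CPM in siNC. The highest value was siPiezo1 replicate 3 and the lowest was siNC replicate 2. The log2 fold change was 0.30 ± 0.22 (SE; edgeR adjusted p = 0.982), and without siNC replicate 2 it was 0.13 ± 0.19 (SE; edgeR adjusted p = 0.862). RefSeq gives it 1 start, and the 250 bases before it, at chr6:134920151-134920400 on the plus strand of GRCm38.p6, are shown beside those of Cdkn1a because Cdkn1b is the second Cip/Kip gene by level.
Cdkn1b: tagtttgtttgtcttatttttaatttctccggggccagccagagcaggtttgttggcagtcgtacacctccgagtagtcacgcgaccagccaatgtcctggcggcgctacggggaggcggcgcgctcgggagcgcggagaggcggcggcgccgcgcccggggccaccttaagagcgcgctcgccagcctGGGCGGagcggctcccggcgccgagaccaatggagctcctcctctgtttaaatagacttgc
The capitals mark 1 GC box, and no other searched motif matched in this window.

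Cdkn1c, which encodes p57, an imprinted inhibitor known from cell cycle exit in embryonic tissue and in quiescent stem cells, showed the largest fold change of the family at a low level. It stood at 4.84, 4.77 and 3.89 CPM in siPiezo1, against 2.73, 0.9 and 2.99 CPM in siNC. All siPiezo1 libraries were above all siNC libraries, and siNC replicate 2 was the lowest. These levels rest on about 91.8, 95.0 and 68.8 fragments in siPiezo1 and about 43.9, 18.0 and 53.2 fragments in siNC, for which counting error alone is 10.3% at the highest and 23.6% at the lowest. The log2 fold change was 1.03 ± 0.45 (SE), a fitted fold of 2.04, and did not pass the threshold (edgeR adjusted p = 0.978, unadjusted p = 0.0582). Without siNC replicate 2 it was 0.65 ± 0.24 (SE; edgeR adjusted p = 0.258). The exact permutation test over 6 libraries gave p = 0.1. An antisense gene, Gm44732, shares 30.7% of the exon bases of Cdkn1c and was listed at 0 counts in every library.

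**Figure D2:**
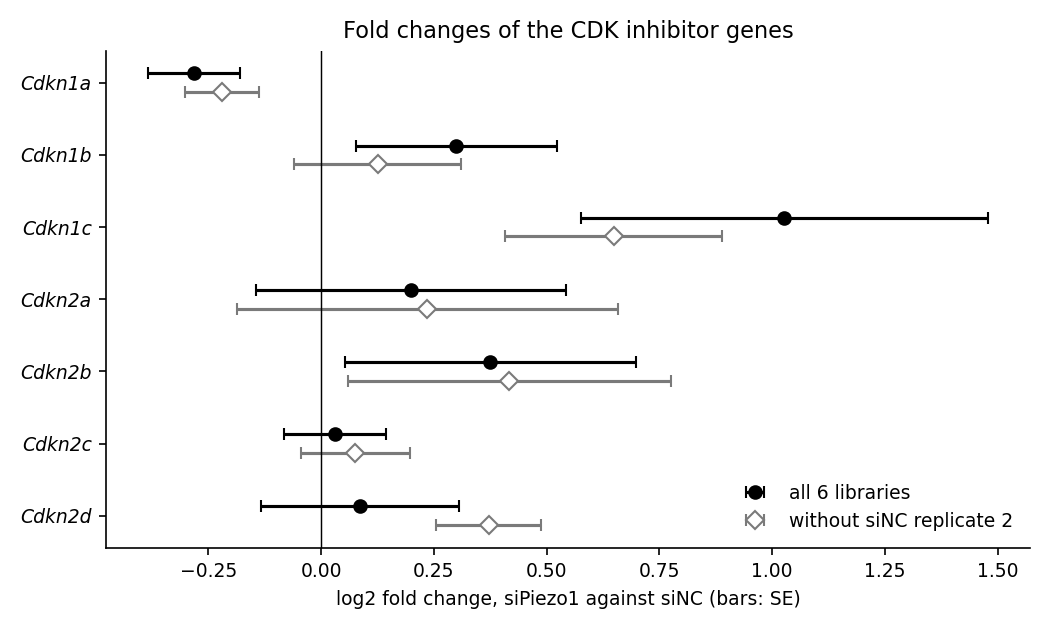
Log2 fold change of each CDK inhibitor gene, siPiezo1 against siNC, in edgeR's fit with all 6 libraries (filled circles) and without siNC replicate 2 (open diamonds), with bars of 1 SE. Cdkn1a is the only member below 0 in both fits, Cdkn1c has the largest value in both, and Cdkn2d moves from 0.09 with 6 libraries to 0.37 without siNC replicate 2.

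For each Ink4 gene the group means differed by less than the larger of the 2 groups' SDs. Cdkn2d, which encodes p19Ink4d, was the highest of the class, at 20.9, 24.1 and 23.6 CPM in siPiezo1, against 17.1, 29.3 and 18.2 CPM in siNC. The siPiezo1 values lay between siNC replicates 1 and 3 below and siNC replicate 2 above. Its log2 fold change was 0.09 ± 0.22 (SE; edgeR adjusted p = 0.991). Without siNC replicate 2 it was 0.37 ± 0.12 (SE; edgeR unadjusted p = 0.0121, adjusted p = 0.181), every siPiezo1 library was above both remaining siNC libraries, and DESeq2 without that library gave an adjusted p of 0.0511 in a fit that called 6.51% of all tested genes. Groups that do not overlap were then also common among all genes, at 33.3%. Without siNC replicate 1 or 3 the log2 fold change of Cdkn2d was -0.06 or -0.02.

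The 250 bases before the start of Cdkn2d, at chr9:21291210-21291459 on the minus strand of GRCm38.p6, are shown because the overlap of its groups turned on siNC replicate 2.
Cdkn2d: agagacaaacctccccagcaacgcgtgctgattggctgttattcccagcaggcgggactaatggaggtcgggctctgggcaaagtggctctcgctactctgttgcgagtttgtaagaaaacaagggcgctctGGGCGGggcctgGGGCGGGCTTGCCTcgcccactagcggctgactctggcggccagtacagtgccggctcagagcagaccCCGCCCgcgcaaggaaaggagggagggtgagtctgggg
The window holds 3 GC boxes, 1 of them on the opposite strand, and 1 p53 decamer that overlaps the second GC box and shares its capitals. No searched E2F motif matched here.

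Cdkn2c, which encodes p18Ink4c, had the smallest ratio of highest to lowest library in the family. It stood at 17.0, 16.7 and 16.7 CPM in siPiezo1, against 16.9, 17.5 and 14.95 CPM in siNC. The groups overlapped, and the log2 fold change was 0.03 ± 0.11 (SE; edgeR adjusted p = 0.995), or 0.08 ± 0.12 without siNC replicate 2. Cdkn2b, which encodes p15Ink4b, an inhibitor induced by TGF-beta in many cells, stood at 3.52, 2.85 and 2.66 CPM in siPiezo1, against 3.00, 2.46 and 1.51 CPM in siNC. Its groups also overlapped, and the log2 fold change was 0.38 ± 0.32 (SE; edgeR adjusted p = 0.989), or 0.42 ± 0.36 without siNC replicate 2. The values rested on about 26.9 to 66.8 fragments per library, and siNC replicate 3 was the lowest.

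Cdkn2a, whose locus encodes both p16Ink4a and p19Arf, the activator of p53 through Mdm2, was the lowest member. It stood at 1.06, 1.06 and 1.69 CPM in siPiezo1, against 1.14, 1.17 and 1.02 CPM in siNC, on about 18.1 to 29.9 fragments per library. The groups overlapped, siPiezo1 replicate 3 was the highest, and the log2 fold change was 0.20 ± 0.34 (SE; edgeR adjusted p = 0.991), or 0.24 ± 0.42 without siNC replicate 2. RefSeq lists 2 starts for the locus, and the single count per library does not separate the 2 products. A difference of the size of the counting error, 18.3% to 23.5%, was not detectable at this depth.

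Read per length, Cdkn1a made up most of the family. Levels in CPM per kilobase of exon were 50.4 to 72.4 for Cdkn1a, 10.9 to 18.6 for Cdkn2d, 5.57 to 6.53 for Cdkn2c, 1.09 to 2.53 for Cdkn2b and 0.868 to 1.44 for Cdkn2a over the 6 libraries. Cdkn1b, at 7.99, 7.87 and 10.9 CPM per kilobase in siPiezo1 and 9.28, 5.43 and 7.03 in siNC, lay above Cdkn2c in every library except siNC replicate 2, and below Cdkn2d in all 6. Cdkn2b was above Cdkn2a in every library. Cdkn1c, at 2.37, 2.34 and 1.91 CPM per kilobase in siPiezo1 and 1.34, 0.441 and 1.47 in siNC, changed places with Cdkn2b between libraries and was below Cdkn2a in siNC replicate 2 alone.

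The share of Cdkn1a in the family's summed level per length was 60.1%, 63.3% and 59.1% in siPiezo1, against 66.4%, 68.2% and 70.6% in siNC. Every siPiezo1 library had a smaller share than every siNC library. This restates the member values, since Cdkn1a lay below siNC and 6 members had log2 fold changes above 0. The summed family level was 83.8, 94.6 and 91.3 CPM per kilobase in siPiezo1, against 91.9, 106 and 93.8 in siNC, and there the groups overlapped. The 4 Ink4 genes held 27.5%, 25.9% and 26.9% of the family in siPiezo1, against 22.05%, 26.3% and 20.3% in siNC.

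**Figure D3:**
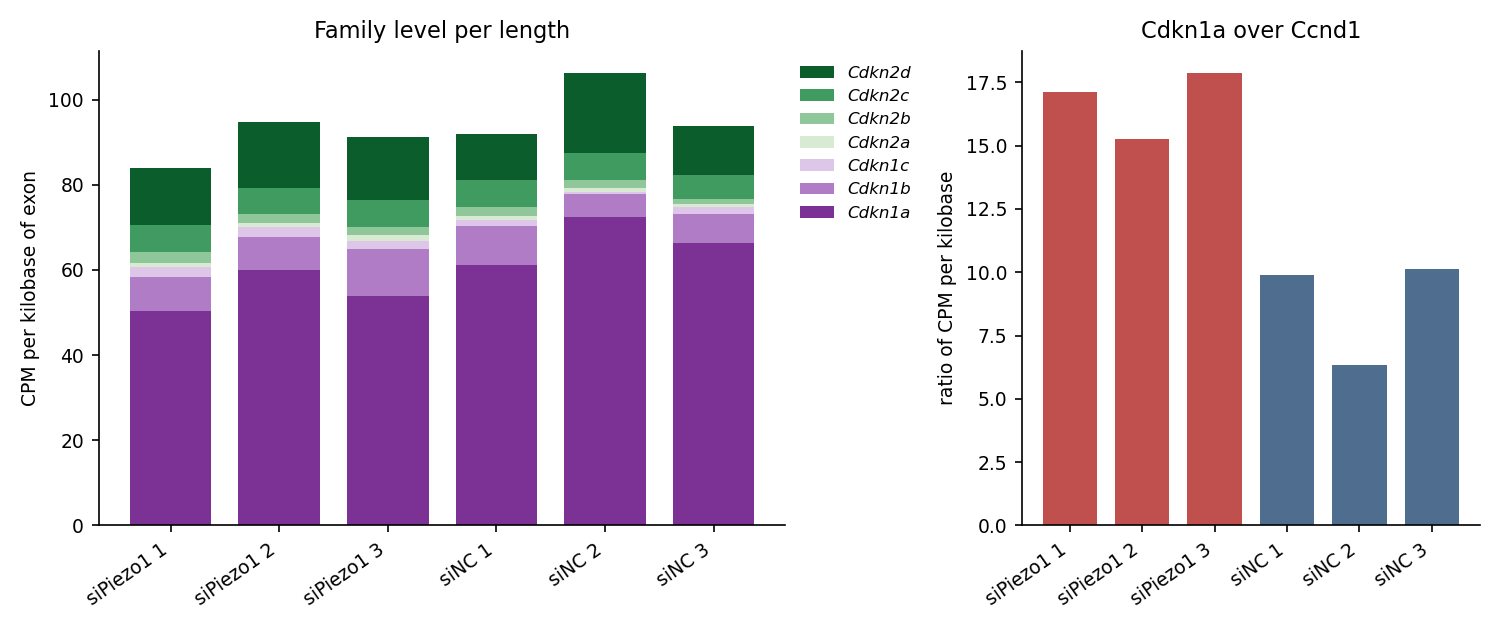
Left, the level of the 7 CDK inhibitor genes in CPM per kilobase of exon, stacked for each library; Cdkn1a is the largest part of every bar, at 59.1% to 70.6%. Right, the level of Cdkn1a divided by that of Ccnd1 (both in CPM per kilobase) in each library; the siPiezo1 libraries have ratios of 15.3 to 17.9 and the siNC libraries 6.33 to 10.1.

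The kinases and cyclins that these inhibitors bind were read from a list of 11 genes. Of these, 0 passed the threshold in either direction with edgeR on 6 libraries, 1 (Ccnd1, lower) had an unadjusted p under 0.05, and DESeq2 called 1 lower, Ccnd1. The median log2 fold change of the list was -0.02. Ccnd1 stood at 13.85, 18.5 and 14.2 CPM in siPiezo1, against 29.1, 53.8 and 30.8 CPM in siNC, with no overlap (log2 fold change -1.29 ± 0.27, SE; adjusted p = 0.744 with edgeR and 0.00269 with DESeq2). On the opposite strand, LTO1 overlaps 23.4% of the Ccnd1 exon sequence and held 955 to 1267 counts in siPiezo1 and 893 to 955 in siNC. The other D-type cyclin genes overlapped between the groups: Ccnd3 had a log2 fold change of 0.18 ± 0.16 and Ccnd2 of -0.35 ± 0.57 (SE). Cdk2, the main kinase target of p27, had -0.14 ± 0.14 (SE).

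Set against Ccnd1 per length, Cdkn1a was 17.1, 15.3 and 17.9 times as high in siPiezo1, against 9.88, 6.33 and 10.1 times in siNC. The groups did not overlap in this ratio, for which Ccnd1 had the larger of the 2 fold changes, both below 0. Against all 3 D-type cyclins the Cip/Kip sum stood at 3.66, 4.15 and 3.79 in siPiezo1 and at 4.10, 2.83 and 4.54 in siNC, with overlap. Ccnd3 had the highest level per length of the D-type cyclins, at 12.1 to 13.6 CPM per kilobase in siPiezo1 and 9.25 to 14.1 in siNC, whereas Ccnd1 had 2.94 to 3.92 in siPiezo1 and 6.18 to 11.4 in siNC. The Ink4 sum divided by that of Cdk4 and Cdk6 was 0.733, 0.84 and 0.859 in siPiezo1, against 0.834, 0.743 and 0.716 in siNC, also with overlap.

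Without siNC replicate 2 the kinase and cyclin genes other than Ccnd1 were above 0. That fit called 1 of the 11 lower, Ccnd1 (-0.95 ± 0.14, SE; edgeR adjusted p = 0.0270), where 1.09% of all tested genes were called, and 0 higher, with a median of 0.49. At an unadjusted p under 0.05 that fit gave 8 of the 11 higher and 1 lower, against 14.3% of all tested genes in either direction. Ccne2, a cyclin E gene that activates CDK2, had -0.02 ± 0.49 with 6 libraries and 0.81 ± 0.18 without siNC replicate 2 (SE). The 14 proliferation genes had a median of -0.003 over 6 libraries and 0.47 without siNC replicate 2, with 0 of them called by edgeR in either fit. Without siNC replicate 2, 13 of the 14 were above 0, and 8 had an unadjusted p under 0.05 with edgeR, all higher. Their 4 smallest p-values with 6 libraries belonged to Foxm1 (-0.61 ± 0.40), Mybl2 (-1.07 ± 0.70), Plk1 (0.21 ± 0.41) and Bub1 (0.21 ± 0.43, SE). With siNC replicate 2 left out these values were -0.53 ± 0.52, 0.30 ± 0.23, 0.83 ± 0.19 and 0.77 ± 0.34 (SE), so the sign of Mybl2 turned.

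In each of the lists that follow, DESeq2 on 6 libraries likewise called 0 genes. At an unadjusted p under 0.05 edgeR gave 1 p53 and 2 FOXO genes, all higher, and 0 in the other lists, whereas DESeq2 gave 2 FOXO genes, 3 of the TGF-beta and MYC list and 0 elsewhere. The shares over all tested genes were 4.93% with edgeR and 6.32% with DESeq2.

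Pocket proteins and E2F factors, which act below the inhibited kinases, had 0 of 13 genes past the threshold and a median of -0.06, which was 0.09 without siNC replicate 2. Rbl1, which encodes the pocket protein p107, stood at 45.6, 48.7 and 53.75 CPM in siPiezo1, against 34.1, 51.7 and 30.5 CPM in siNC. Its log2 fold change was 0.35 ± 0.20, and without siNC replicate 2 it was 0.61 ± 0.10 (SE, edgeR adjusted p = 0.0354). E2f6, Tfdp2 and Tfdp1, the others with the smallest p, had log2 fold changes of 0.17 ± 0.18, -0.34 ± 0.40 and -0.13 ± 0.19 (SE).

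Genes that turn over p21 and p27 had 0 of 14 members past the threshold and a median of -0.0005. Skp2, the F-box protein that marks p27 for degradation, stood at 9.53, 12.0 and 12.3 CPM in siPiezo1, against 12.99, 14.3 and 12.3 CPM in siNC. It was the one member whose groups did not overlap, against 11.9% of all tested genes. The margin was less than 1 fragment, with 12.3 CPM (823 counts) in siPiezo1 replicate 3 and 12.34 CPM (825 counts) in siNC replicate 3. The log2 fold change of Skp2 was -0.23 ± 0.15 (SE; edgeR adjusted p = 0.978). Ubac1 and Rnf123, which together form another p27 ligase, had 0.16 ± 0.13 and 0.20 ± 0.17, and Fzr1, an activator of the anaphase-promoting complex, had -0.10 ± 0.10 (SE).

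The p53 list, which regulates Cdkn1a and runs below p19Arf, had 0 of 24 members past the threshold and a median of 0.05. Trp53 itself had a log2 fold change of 0.05 ± 0.09 and Mdm2, the ligase that degrades p53, of -0.03 ± 0.13 (SE). Fas, a death receptor gene, had 0.25 ± 0.10 and the smallest p of the list. Phlda3, Btg2 and Ei24 followed with -0.43 ± 0.27, 0.19 ± 0.13 and 0.10 ± 0.08 (SE). A total of 17 of the 24 members were above 0, against 48% of all tested genes, and Cdkn1a was below 0. In the fit without siNC replicate 2, Plk2 was the member past the threshold, higher by 0.46 ± 0.07 (SE; edgeR adjusted p = 0.0292), and it had 0.02 ± 0.29 with all 6 libraries.

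FOXO factors, which AKT holds out of the nucleus and which induce Cdkn1b in many cells, were read with their targets. None of the 13 tested members passed with edgeR or DESeq2 on 6 libraries, and the median was 0.15, or 0.06 without siNC replicate 2; Foxo6 did not pass the count filter. Cited2 stood at 81.1, 73.6 and 74.8 CPM in siPiezo1, against 49.6, 63.8 and 47.8 CPM in siNC, with no overlap (0.51 ± 0.13, SE; edgeR adjusted p = 0.861). Leaving out siNC replicate 2, its log2 fold change was 0.65 ± 0.08 (SE, edgeR adjusted p = 0.0125). Sesn3 had 0.46 ± 0.18, Foxo1 0.30 ± 0.15 and Klf2 0.29 ± 0.13 (SE). Without siNC replicate 2 these values were 0.35 ± 0.17, 0.17 ± 0.13 and 0.35 ± 0.12 (SE). Cited2, Sesn3 and Foxo1 were the 3 of 13 that lay above siNC without overlap, against 6.24% of all tested genes. Foxo3 had -0.10 ± 0.10, or -0.19 ± 0.07 without siNC replicate 2 (SE). In that fit 2 of the 13 had an unadjusted p under 0.05 above 0 and 2 below 0. The share over all tested genes was 14.3% in either direction.

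The TGF-beta, SMAD and MYC list, known to regulate Cdkn2b and Cdkn1a, had 0 of 18 members past the threshold and a median of -0.02, which was 0.06 without siNC replicate 2. Zbtb17, which encodes the MYC partner Miz1, stood at 22.3, 20.7 and 19.1 CPM in siPiezo1, against 24.9, 22.7 and 29.6 CPM in siNC (-0.32 ± 0.13, SE). Id3, an inhibitor of helix-loop-helix factors, had 0.72 ± 0.32 and Tgfb1 had -0.15 ± 0.07 (SE), both without overlap, and neither passed the threshold (edgeR adjusted p = 0.978 for each). Of the 18 members, 1 lay above and 2 below siNC without overlap, against 6.24% and 5.65% of all tested genes. Myc stood at 2.06, 3.97 and 2.29 CPM in siPiezo1, against 2.59, 15.2 and 2.86 CPM in siNC. Its log2 fold change of -1.31 ± 0.73 became 0.02 without siNC replicate 2. Id2 had 0.49 ± 0.06 without siNC replicate 2 (SE, edgeR adjusted p = 0.0151), and with 6 libraries it had 0.28 ± 0.17.

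Polycomb genes, which silence the Cdkn2a and Cdkn2b locus, had 0 of 18 members past the threshold and a median of 0.002. The smallest p-values belonged to Cbx2 (-0.76 ± 0.49, at most 2.10 CPM), Pcgf2 (-0.29 ± 0.22), Jarid2 (-0.25 ± 0.19) and Ezh2 (0.26 ± 0.21, SE). The list of kinases and phosphatases that act on CDKs, with partners of these enzymes, had 0 of 9 past the threshold and a median of 0.04. Mnat1 had 0.31 ± 0.16, Pkmyt1 0.35 ± 0.27, Cdc25a -0.26 ± 0.30 and Cdk7 -0.07 ± 0.09 (SE). A list of other genes linked to CDKs or to their inhibitors had 0 of 8 past the threshold and a median of 0.09. Cdk2ap2, a CDK2-associated protein, stood at 41.45, 43.2 and 46.3 CPM in siPiezo1, against 37.6, 39.4 and 40.7 CPM in siNC (0.15 ± 0.09, SE), and Cables1 (-2.00 ± 1.01), Cdkn2aip (0.17 ± 0.14) and Hexim1 (0.14 ± 0.13, SE) overlapped. In the pooled lists of partners and regulators, 0 of 142 tested genes passed with edgeR on 6 libraries, where 4 had an unadjusted p under 0.05 and DESeq2 called 1. Over all tested genes 4.93% had such an unadjusted p. Groups did not overlap for 6 of the 142 above and 4 below siNC, against 6.24% and 5.65% of all tested genes.

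**Figure D4:**
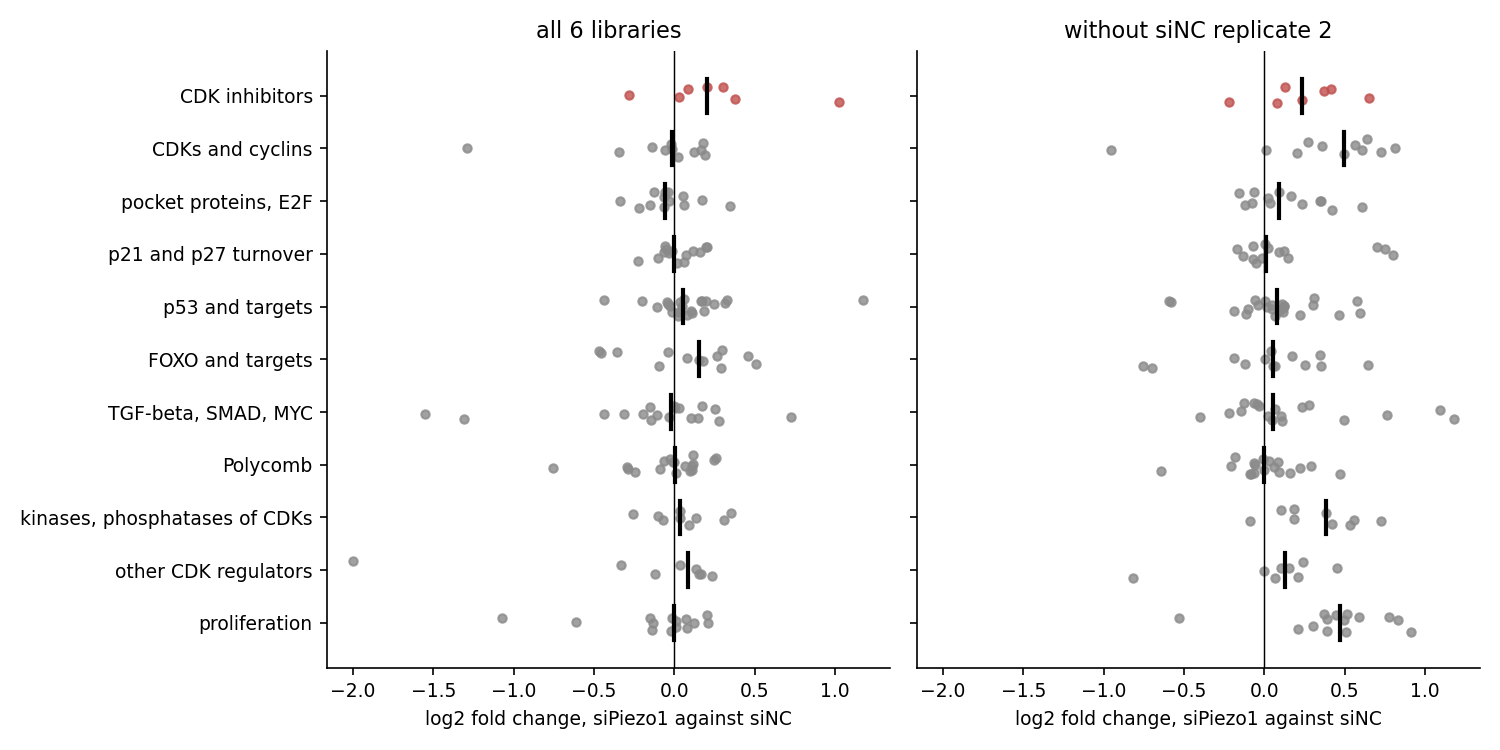
Log2 fold change, siPiezo1 against siNC, of each tested gene in the CDK inhibitor family (red) and the 10 lists of partners and regulators (grey), with the median as a black bar, for all 6 libraries (left) and without siNC replicate 2 (right). The medians of the CDK and cyclin list and of the proliferation list lie at -0.02 and -0.003 on the left and at 0.49 and 0.47 on the right, and that of the inhibitors at 0.20 and 0.24.

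The genes whose log2 CPM followed each member most closely over the 6 libraries were chosen among 8709 genes of at least 10 CPM. The 6 points share the extreme of siNC replicate 2, and high correlations arise among so many genes, so these are descriptions. Cdkn1a was most like Cfp, the complement factor properdin (r = 0.993), Il4ra, an interleukin-4 receptor chain (0.991), and Mtmr3, a phosphoinositide phosphatase (0.984). Cfp stood at 359, 423 and 391 CPM in siPiezo1, against 445, 514 and 486 CPM in siNC. Cdkn1b was most like Map3k12 (0.991), Usf1 (0.986) and Ube2r2 (0.975), the last of which encodes an E2 ubiquitin-conjugating enzyme of the Cdc34 family. Among the genes most like Cdkn2c were Ldah (0.991) and Bloc1s2 (0.977). Cdkn2d was most like Sec23b (0.999) and the mitosis genes Aurka and Ect2 (0.991 each). Aurka stood at 14.6, 20.1 and 21.02 CPM in siPiezo1, against 10.8, 33.9 and 11.2 CPM in siNC, so it was highest in siNC replicate 2, as Cdkn2d was. A total of 410 genes had r above 0.9 with Cdkn2d, against 89, 58 and 77 with Cdkn1a, Cdkn1b and Cdkn2c.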

How the data were processed

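Poly(A) RNA was measured in 6 libraries, grouped by sample title. Per the submitters' processing notes, cutadapt 1.9, HISAT2 2.0.4, StringTie 1.3.4d, DESeq2, edgeR and build GRCm39 were used. What each did, which annotation was used and whether counting used strand is not given in the sources used here, although dUTP strand marking stands in the labels' protocols. The authors deposited unscaled estimated counts per gene, as whole numbers. From the spacing of low values, 1 fragment was worth 3.76 to 3.78 counts. Counting errors were computed on fragments and cover counting only, since duplicates of 1 molecule cannot be recognised.

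Of 55401 identifiers, 55141 matched a symbol in GENCODE M21, which also gave exon lengths and overlaps. Promoter windows came from RefSeq (GRCm38.p6) and matched 6 of the 7 members; Cdkn1c was not matched. They are given in that build and were not used with the counts. No other transcript matched a member at 90% identity or more over at least 200 bases, apart from antisense overlaps of Cdkn1a and Cdkn1c.

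The main test was edgeR 4.0.16 (R 4.3.3) quasi-likelihood with robust dispersions, TMM scaling and filterByExpr, which kept 15959 genes. Benjamini-Hochberg adjustment covered all of these genes. Positive log2 fold changes mean higher in siPiezo1. The SE of edgeR's fold change was derived from F. CPM use TMM-scaled totals. The script was tested on simulated data. With 6 libraries it called 6% of simulated 1.5-fold changes and 53.7% of 2-fold changes, and 7.6% of its calls were false. No simulated library was set apart across genes as siNC replicate 2 was. These rates may therefore not hold for the real libraries. Alternatives were other scalings and filters, DESeq2 1.42.0, limma-voom (limma 3.58.1), counts divided by 4, a replicate block, a threshold of 0.01 and each library left out. No label names separate cultures or animals behind the replicates; p-values measure only how these samples spread, possibly from technical sources.

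The members and gene lists were chosen with earlier results of these data known. The text names all members, Piezo1 and Ccnd1, up to 4 genes of smallest p in each of 10 lists, and the 3 genes most like each member above 5 CPM, of which 1 is not reported here. Further genes (Trp53, Mdm2, Foxo3, Ccne2, Mki67, Lyz2, the C1q genes and list members called without siNC replicate 2) were chosen after their values were seen. Lists are given by counts and medians, with no set test.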

Additional observations from a re-analysis of the deposited data

How the results depend on the processing

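No CDK inhibitor gene passed the threshold under any of the 17 alternatives, with adjusted p of 0.0511 (Cdkn2d, DESeq2 without siNC replicate 2) or more. Cdkn1a stayed below 0 (-0.35 to -0.22) and Cdkn1b (0.13 to 0.52), Cdkn1c (0.65 to 1.31) and Cdkn2b (0.14 to 0.60) above 0 in all 16 fits, but with 1 library left out the sign turned for Cdkn2a (-0.058 to 0.315, below 0 without siPiezo1 replicate 3), Cdkn2c (-0.034 to 0.076, below 0 without siNC replicate 3) and Cdkn2d (-0.056 to 0.371, below 0 without siNC replicate 1 or 3). Cdkn1b was at 0.13 both without siPiezo1 replicate 3 and without siNC replicate 2.

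Over all genes the count of 1 became 0 with library totals and at a threshold of 0.01, 4 with library weights in limma-voom, 88 with DESeq2, 0 to 180 with 1 library left out (180 without siNC replicate 2) and 1071 with DESeq2 without siNC replicate 2; the cause was not tested. The last fit also called 7 of the kinase and cyclin genes (6 of them higher), 1 pocket and E2F gene, 3 turnover genes, 3 p53 genes, 2 FOXO genes, 3 TGF-beta and MYC genes and 6 proliferation genes, out of 11, 13, 14, 24, 13, 18 and 14 tested, where it called 6.51% of all tested genes; edgeR with 6 libraries called 0 in each. With DESeq2 on 6 libraries 1 kinase and cyclin gene was called. With 1 library left out, calls ranged from 0 to 1 in the kinase and cyclin, pocket, p53, FOXO and TGF-beta lists. Medians then ranged from -0.16 to 0.49 for kinases and cyclins (0.50 with DESeq2 without siNC replicate 2), -0.052 to 0.017 for turnover, -0.035 to 0.017 for Polycomb and -0.10 to 0.39 for CDK kinases and phosphatases (0.34 with library weights, 0.39 with DESeq2 without siNC replicate 2), and the p53 median was 0.10 with limma-voom.

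Same-numbered libraries did not deviate together (correlations of 0.03, -0.06 and -0.09). With 3 libraries per group and siNC replicate 2 apart, this cannot tell whether same-numbered libraries shared an animal, culture or batch. With the replicate block 0 genes were called, and the p53 median was 0.10. No siPiezo1 library correlated best with its own number. The low depth of Cdkn1c, Cdkn2a and Cdkn2b limits what their values can show.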

Other observations

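Genes that lie beside the CDK inhibitors were read as values, a choice made after the data were seen. The 3 protein-coding genes on each side of each member in RefSeq came to 36 genes, of which 24 passed the count filter. None passed the threshold with edgeR or DESeq2 on 6 libraries, and 0 had an unadjusted p under 0.05 in either direction in each. Over all tested genes 4.93% had such a p with edgeR and 6.32% with DESeq2. Groups without overlap were found for 0 of the 24, against 11.9% of all tested genes. Without siNC replicate 2, edgeR called 0, and 3 had an unadjusted p under 0.05, all higher, against 14.3% of all genes. In that fit 18 of the 24 were above 0, against 50.5% of all genes. Beside Cdkn1c, Nap1l4 had a log2 fold change of -0.18 ± 0.12, Tssc4 of -0.18 ± 0.13 and the low Slc22a18 of -0.41 ± 0.68 (SE), while the imprinted genes Phlda2 and Kcnq1 were listed at 0 counts in every library. Mtap, which borders Cdkn2a and encodes an enzyme of methionine salvage, stood at 28.8, 30.5 and 32.0 CPM in siPiezo1, against 23.7, 37.1 and 28.2 CPM in siNC. Rab44, beside Cdkn1a, stood at 3.76, 5.76 and 8.22 CPM in siPiezo1, against 5.66, 46.7 and 5.41 CPM in siNC, so siNC replicate 2 was far above the other libraries for it, whereas Cdkn1a stood at 257 CPM there and averaged 226 CPM in siNC replicates 1 and 3.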
